A study of Mus musculus with 10 samples.

Results

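The genes described here are the 10 members of 3 complexes that start DNA synthesis: the primase genes Prim1 and Prim2, the DNA polymerase alpha genes Pola1 and Pola2, and Mcm2 to Mcm7 of the MCM helicase. Every non-control probe whose gene name in the files was one of these was taken, which gave 14 probes of 41174. Of these, 12 probes, covering all 10 genes, passed the filter on dim probes. The genes were chosen by earlier results of the genotype comparison on these same arrays, in which Prim2 stood out, so their genotype differences below are a description and carry no test.

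The tumours were spontaneous lymphomas of mice, 1 per animal, profiled as total RNA on single-colour Agilent arrays. The animals were C/EBPb LIP heterozygotes (+/L, 5 tumours), with an allele of the C/EBPβ transcription factor gene that yields LIP, its short isoform, or wild type (+/+, 5 tumours). The allele is in the germline and no other engineered change or treatment is named for either genotype. Ages at dissection were 21, 20, 20, 18 and 11 months in +/L mice 20, 23, 517, 688 and 866, and 29, 20, 23, 26 and 26.5 months in +/+ mice 11, 17, 19, 40 and 101. The labels give neither lymphoma subtype nor anatomical site, and no normal lymphoid tissue is in the series. The +/L mice were younger by 6.90 months on average (18.0 ± 4.06 months in +/L and 24.9 ± 3.47 months in +/+, SD, n = 5 each, exact two-sided permutation p = 0.0317).

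A replication fork is prepared before S phase, when the MCM2-7 ring is loaded onto origins, and is opened in S phase, when the ring becomes the motor of the active helicase. DNA polymerases cannot start a chain, so primase lays down a short RNA primer, which polymerase alpha extends with DNA. Prim1 encodes the catalytic primase subunit and Prim2 the large subunit, and both form a stable complex with the catalytic subunit Pola1 and the accessory subunit Pola2, so the 4 proteins work as a unit. In dividing lymphocytes the genes of all 3 complexes are known to be transcribed under E2F control.

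The probe sequences that the main result turns on are printed first, because Prim2 has a single probe on the array and the departure described below rests on it. Each probe is 60 bases long. The Prim2 probe lies at chr1:33510733-33510792 on the minus strand (mm9, as listed in the files) and begins at base 1800 of its transcript record. The Prim1 probe, the partner subunit with which it is compared, lies at chr10:127466952-127467011 on the plus strand. The Imp4 probe is shown because it is described below beside Prim2, and lies at chr1:34501970-34502029 on the plus strand. Exon and intron annotation of mm9 was not used here.
Prim2: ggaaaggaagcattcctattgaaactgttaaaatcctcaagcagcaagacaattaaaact
Prim1: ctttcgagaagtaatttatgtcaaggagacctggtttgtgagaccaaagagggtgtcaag
Imp4: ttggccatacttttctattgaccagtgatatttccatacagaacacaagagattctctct

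Some arrays need a word before the results. Each value below is the log2 processed signal minus the 75th percentile of its own array, so 0 is the level of a probe at that percentile. The 75th percentile signal itself was 309 to 651 in +/L and 199 to 340 in +/+ arrays. Its mean was 434 ± 129 in +/L and 288 ± 61.1 in +/+ (SD, n = 5 each, exact two-sided permutation p = 0.0317), so the scaling value differed by genotype. The share of spots well above background was 48.0 to 64.7% in +/L and 52.9 to 66.7% in +/+. The arrays sat on 3 slides, which held 2, 2 and 1 +/L arrays and 2, 1 and 2 +/+ arrays by the file headers. On 2 arrays, those of +/L mouse 20 and +/+ mouse 11, Xist was well above background and Y-linked transcripts were not, although both animals are labelled male. The B-cell markers were well above background in every tumour, with at least 9 of 10 on each array, and the T-cell, macrophage and plasma-cell lists were also nearly fully detected. The tumours may therefore have held several cell types, but their composition was not measured. In such bulk samples fewer dividing cells and less RNA per cell cannot be told apart. Mki67, a marker of dividing cells, averaged 4.93 ± 0.532 in +/L and 5.08 ± 0.996 in +/+ tumours (SD, 5 per genotype, n = 5).

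Prim2 was the member that differed most between tumours. Its values were 0.26, 0.68, -3.41, -2.63 and -3.15 in +/L mice 20, 23, 517, 688 and 866, and 1.07, 0.90, 0.14, 0.23 and 0.95 in +/+ mice 11, 17, 19, 40 and 101. Thus 3 of the 5 +/L tumours were low, and the other two +/L tumours lay among the +/+ tumours, so the groups overlapped. As processed signals, before scaling, the probe gave 38.2, 67.4 and 73.2 in +/L mice 517, 688 and 866, and 460 and 497 in +/L mice 20 and 23. The +/+ tumours gave 293 to 689. The probe was well above background on all 10 arrays, so the low values are measured levels and not bounds.

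The mean Prim2 value was -1.65 ± 1.96 in +/L and 0.66 ± 0.43 in +/+ tumours (SD, 5 per genotype, n = 5), a log2 difference of -2.31 with a standard error of 0.80. This corresponds to a 4.95-fold lower geometric mean in +/L, but no +/L tumour had a value near that mean. The low tumours came from mice of 20, 18 and 11 months on 3 different slides, while +/L mice 20 and 23 were 21 and 20 months old. All 3 low mice were labelled female, as were +/L mouse 23 and +/+ mice 17, 19 and 40. The label of +/L mouse 20 was male. Within slides the +/L minus +/+ difference was -1.75 on slide 1, -2.43 on slide 2 and -3.70 on slide 3, with 1 or 2 arrays of a genotype on each. With age as a covariate the difference was -1.17, and age and genotype cannot be told apart fully, because only mice of 20 and 21 months in +/L overlap the +/+ ages.

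Marker lists were summed for each tumour and set beside the Prim2 values. The summed level of 10 B-cell markers was 8.24, 7.98 and 5.67 in +/L mice 517, 688 and 866, against 7.57 and 8.09 in +/L mice 20 and 23 and 7.46 to 8.06 in +/+ tumours. The summed level of the 9 macrophage markers in the files was 5.34, 8.54 and 8.58 in the same 3 mice, against 7.66 and 7.68 in mice 20 and 23 and 8.06 to 8.97 in +/+ tumours. Neither of these lists, nor the neutrophil or the adipocyte and stroma list, placed mice 517, 688 and 866 on 1 side of mice 20 and 23. The T-cell list did, at 7.03, 7.95 and 7.49 in mice 517, 688 and 866, against 5.46 and 6.42 in +/L mice 20 and 23, and 6.02 to 8.67 in +/+ tumours. The plasma-cell list did too, at 5.21, 3.93 and 3.91 in the 3 mice, against 7.49 and 5.44 in mice 20 and 23, and 4.81 to 6.12 in +/+ tumours. For the T-cell list all 3 values lay within the +/+ range, and for the plasma-cell list that of mouse 517 did. The part of these cell types in the Prim2 result was not tested.

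**Figure D1:**
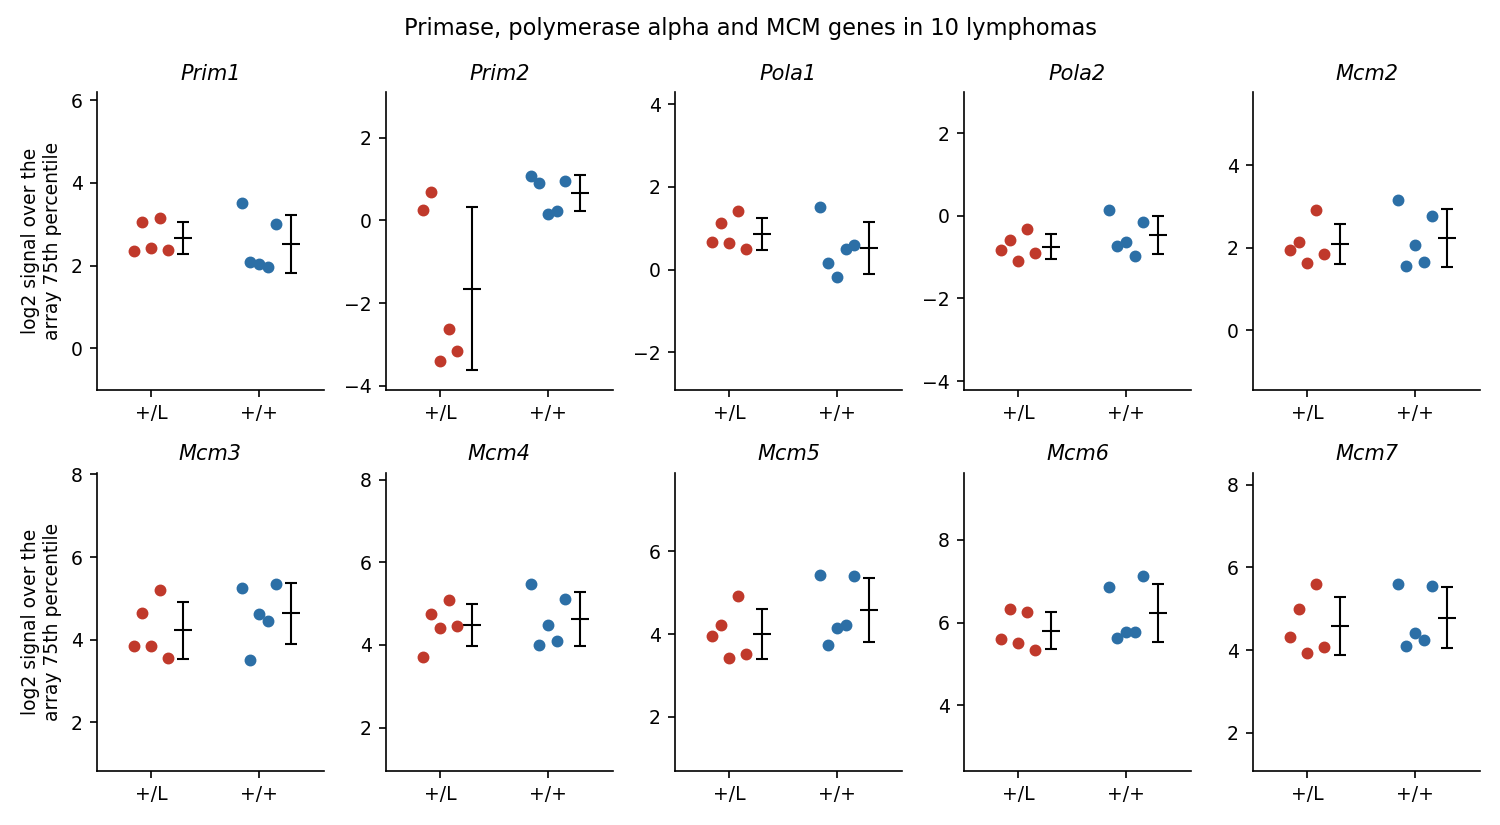
Values of the 10 genes in each tumour, 1 panel per gene with its brightest probe. The y axis is the log2 signal over the array's 75th percentile and spans the same 7.2 log2 units in every panel; points are tumours (+/L red, +/+ blue) and the bars are mean and SD of 5 tumours. Prim2 is the only panel with 3 +/L points, between -3.41 and -2.63, apart from the rest.

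Prim1, the catalytic partner of Prim2, did not share its pattern. Its values were 2.36, 3.04, 2.42, 3.14 and 2.39 in +/L mice 20, 23, 517, 688 and 866, and 3.51, 2.10, 2.04, 1.96 and 3.01 in +/+ mice 11, 17, 19, 40 and 101. The groups overlapped, and +/L mouse 688, low in Prim2, had the highest Prim1 value of its genotype. The mean was 2.67 ± 0.39 in +/L and 2.53 ± 0.70 in +/+ tumours (SD, 5 per genotype, n = 5), a difference of 0.15 with a standard error of 0.34.

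Pola1, the catalytic subunit of polymerase alpha, is probed at chrX:90550189-90550248 (minus strand). It measured 0.67, 1.13, 0.65, 1.41 and 0.50 in +/L mice 20, 23, 517, 688 and 866, against 1.52, 0.17, -0.18, 0.49 and 0.59 in +/+ mice 11, 17, 19, 40 and 101. The difference was 0.35 with a standard error of 0.33, and the groups overlapped. Pola2, the accessory subunit, has 3 probes, all on the minus strand of chromosome 19. The brightest, at chr19:5946484-5946543, measured -0.83, -0.58, -1.09, -0.33 and -0.90 in the +/L mice in the same order, against 0.14, -0.74, -0.63, -0.96 and -0.15 in the +/+ mice. Again mouse 688 was the highest +/L tumour, and the genotype difference was -0.28 with a standard error of 0.26. Neither polymerase gene placed mice 517, 688 and 866 apart from the others.

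The other Pola2 probes were dim and gave little. The probe at chr19:5950346-5950405 was well above background in 3 +/L tumours and 1 +/+ tumour and differed by 0.46 with a standard error of 0.65. Across tumours, after taking out the genotype means, it correlated with the bright Pola2 probe at r = -0.533 and rho = -0.455 over 10 tumours, given as a description. The probe at chr19:5957717-5957776 was well above background on no array and was not tested. The Pola2 values in the text are those of the bright probe.

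The 6 MCM genes moved together from tumour to tumour. Mcm2, a subunit of the ring that also binds histones, measured 1.94, 2.14, 1.62, 2.91 and 1.86 in +/L mice 20, 23, 517, 688 and 866, and 3.16, 1.55, 2.08, 1.65 and 2.77 in +/+ mice 11, 17, 19, 40 and 101. Mcm5, which closes the ring's gate with Mcm2, measured 3.94, 4.22, 3.42, 4.92 and 3.51 in the same +/L mice, and 5.44, 3.75, 4.15, 4.23 and 5.40 in the same +/+ mice. In both genes mouse 688 was the highest +/L tumour, mice 11 and 101 were the highest +/+ tumours, and the groups overlapped. Mcm7 was 4.31, 4.99, 3.92, 5.60 and 4.08 in the +/L mice and 5.61, 4.09, 4.42, 4.25 and 5.54 in the +/+ mice, with the same tumours at the top.

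Mcm5 had the largest MCM genotype difference, -0.59 with a standard error of 0.41 (4.002 ± 0.608 in +/L and 4.593 ± 0.776 in +/+, SD, n = 5 each). Mcm6 differed by -0.43 with a standard error of 0.36 with a +/L range of 5.34 to 6.32 and a +/+ range of 5.62 to 7.14. Mcm4, -0.14 with a standard error of 0.35, had a +/L range of 3.72 to 5.09 and a +/+ range of 3.99 to 5.48 at its bright probe at chr16:15624372-15624431; a second Mcm4 probe, at chr16:15633373-15633432, was well above background on 2 arrays and was not tested. Mcm2 and Mcm7 differed by -0.15 and -0.20, each with a standard error above the difference (0.37 and 0.42).

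Mcm3 is the gene in which 2 bright probes can be set against each other. The brighter, at chr1:20793119-20793178, gave a genotype difference of -0.42 with a standard error of 0.42, and the other, whose listed span of chr1:20795363-20795879 is longer than the probe, gave -0.40 with a standard error of 0.35. Over 10 tumours, after taking out the genotype means, the probes correlated at r = 0.931 and rho = 0.891, given as a description. Mcm3 lies on the same chromosome as Prim2, as does Mcm6 at chr1:130228178-130228237, and neither was low in mice 517, 688 and 866 as a group: the brighter Mcm3 probe measured 3.84, 5.21 and 3.57 in them, against 3.85 and 4.65 in +/L mice 20 and 23 and 3.52 to 5.36 in +/+ tumours.

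Among all genes, none of the 26421 probes kept passed an adjusted p of 0.05 in the genotype comparison (limma, Benjamini-Hochberg; percent called 0, smallest adjusted p = 0.1205), and 2103 had an unadjusted p under 0.05. The members' own places in that comparison were part of how they were chosen. None of the 12 member probes had +/L and +/+ tumours that did not overlap, where 1.21% of all probes were lower in every +/L tumour and 0.579% were higher in every +/L tumour. Of the 10 genes, 8 had a lower mean in +/L, with a median difference of -0.24, against 9243 of 17822 genes and a median of -0.02 over all genes. That count was 5 of 10 without +/+ mouse 11, 2 of 10 in the mice labelled female and 1 of 10, Prim2, with age as a covariate.

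**Figure D2:**
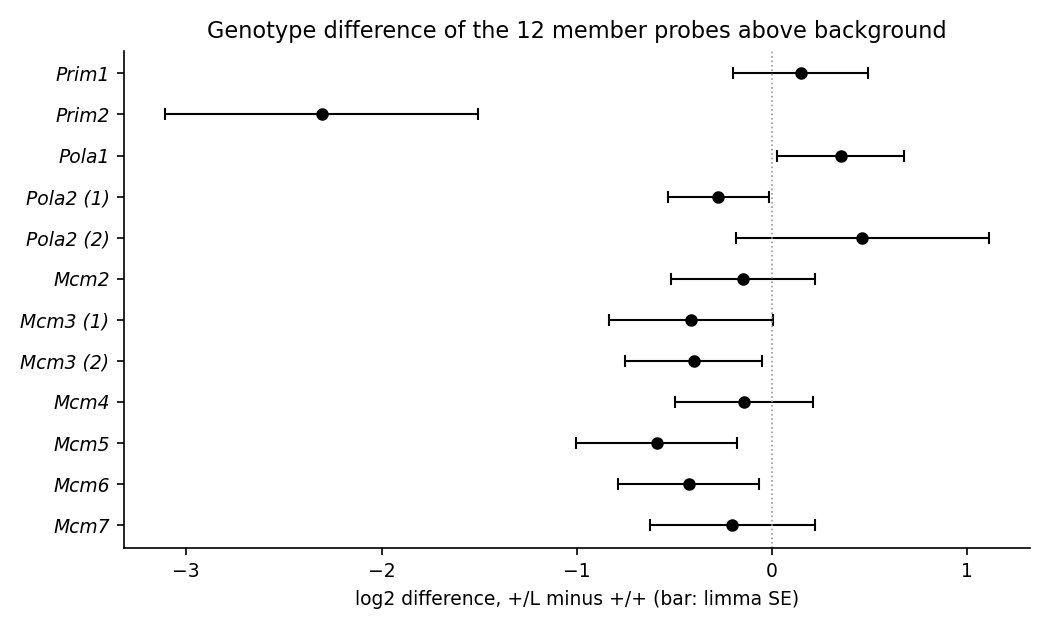
Log2 difference, +/L minus +/+, for the 12 member probes that passed the filter, with limma's standard error as bars. For Pola2 and Mcm3, (1) is the brighter probe and (2) the other. Prim2 is at -2.31; the other 11 probes lie between -0.59 and 0.46.

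Set against the other 9 genes tumour by tumour, Prim2 departed in mice 517, 688 and 866. With each gene centred on its mean over the 10 tumours, the mean of the 9 others was -0.46, 0.60 and -0.45 in these mice, and Prim2 was -2.91, -2.13 and -2.66. Prim2 minus that mean was therefore -2.45, -2.73 and -2.21 in them, against 1.12 and 0.98 in +/L mice 20 and 23 and 0.66 to 1.93 in +/+ tumours. In all 3 mice Prim2 lay below the lowest of the other 9 genes, and in the other 7 tumours above the highest, since the 3 low values also pull down the mean on which Prim2 is centred. The direction of the other 9 genes differed among the low tumours: mouse 688 had the highest replication-gene mean of the +/L group, and mice 517 and 866 the lowest.

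The spread of Prim2 within +/L tumours comes from the same low values, so it describes them again and adds no separate support. Within +/L tumours Prim2 had an SD of 1.96, which ranked 188 among the 17910 probes that were well above background on all arrays, whose median was 0.45. The other bright member probes had +/L SDs of 0.30 to 0.70. Within +/+ tumours Prim2 had an SD of 0.43, against a median of 0.36 over those probes and 0.45 to 0.78 for the other bright members, so it was the least variable of the bright member probes there. Among 64 kept genes of origin licensing, replication forks, nucleotide supply and S-phase regulation, no +/L SD exceeded 0.972.

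**Figure D3:**
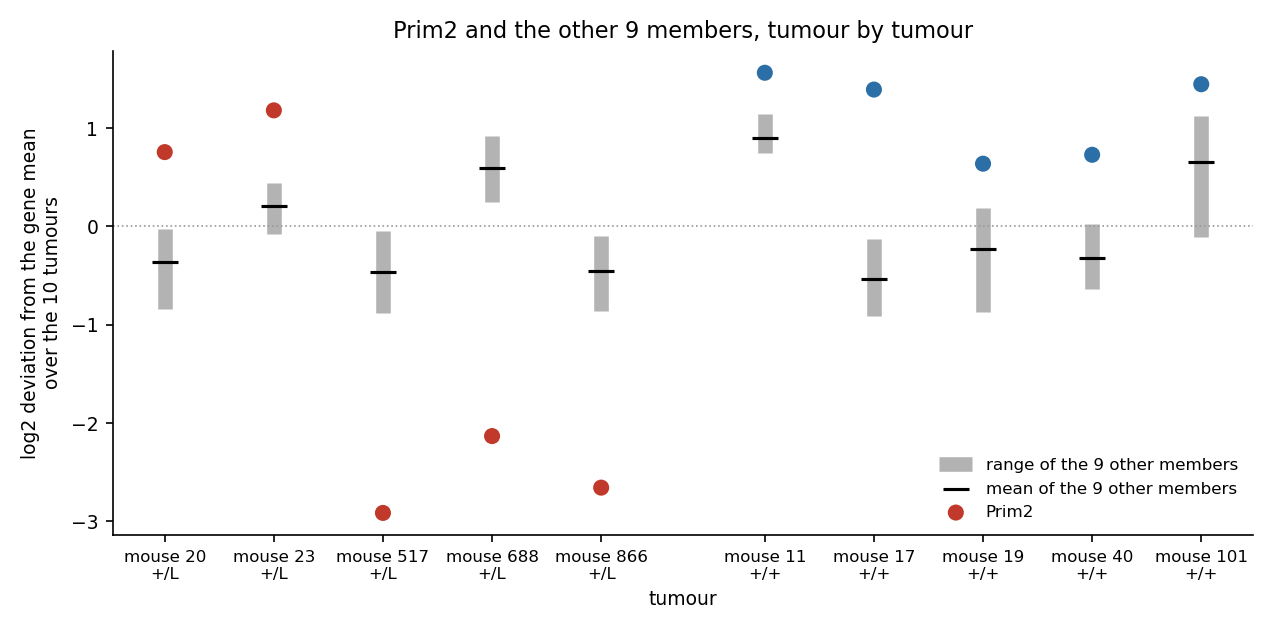
Log2 deviation of each gene from its mean over the 10 tumours (y axis), by tumour (x axis, +/L left, +/+ right). Points are Prim2, grey bars the range and black ticks the mean of the other 9 members. In mice 517, 688 and 866 Prim2 lies between -2.91 and -2.13, below the grey bars; in the other 7 tumours it lies above them.

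To place the members against replication genes that were not used to choose them, each tumour was given an S-phase score, the mean centred log2 value of 64 genes of origin licensing and firing, the replication fork, nucleotide supply, and E2F and S-phase regulation, none of them a member. Values were centred within genotype, so this relation does not use the genotype difference. The score was -0.14, 0.17, -0.29, 0.47 and -0.22 in +/L mice 20, 23, 517, 688 and 866, and 0.80, -0.38, -0.41, -0.46 and 0.45 in +/+ mice 11, 17, 19, 40 and 101. Each of the 26421 probes was tested against it by an exact two-sided permutation within genotype, as was done for 2 further relations, a mitosis score and age. The probes that make up a score were among those tested against it, so the background shares, ranks and counts below include them.

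The 9 genes other than Prim2 followed the S-phase score closely, but no probe on the array passed the exact permutation after adjustment. Prim1 correlated at r = 0.985 (exact permutation, adjusted p = 0.127; rho = 0.939, adjusted p = 0.265), which ranked 6 in size among all probes. For Pola2's bright probe r was 0.973 (exact permutation p = 1.39e-04, adjusted p = 0.122; rho = 0.952, p = 2.78e-04, adjusted p = 0.204), and for Pola1 it was 0.880 (exact permutation adjusted p = 0.131; rho = 0.770). The 7 MCM probes gave r of 0.812 for the brighter Mcm3 probe to 0.953 for Mcm2 and rho of 0.661 to 0.903, with adjusted p of 0.124 to 0.163 (exact permutation).

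Before adjustment 10 of the 12 member probes were positively correlated at p under 0.05, against a background of 11.6% of all probes in that direction. The exceptions were Prim2 and the dim Pola2 probe. That Pola2 probe was under the same threshold in the negative direction, at r = -0.503 (exact permutation p = 0.0345, adjusted p = 0.260), with rho at -0.333. Without the 2 tumours farthest from the median score, mouse 688 (+/L) and mouse 11 (+/+), r was 0.970 for Prim1, 0.936 for Pola2, 0.659 for Pola1 and 0.727 to 0.972 for the MCM probes. With slide also taken out r was 0.996 for Prim1, 0.975 for Pola2, 0.947 for Pola1 and 0.802 to 0.967 for the MCM probes. With limma in place of the permutation, chosen after seeing the data, 87 probes passed against the score (0.329% of all), among them Prim1 and Mcm7 (limma adjusted p = 0.0465 for both), and with slide as a further term no member passed (smallest adjusted p = 0.160 in limma). Among themselves the 9 genes correlated at r of 0.711 to 0.981 over 36 pairs, the highest being Mcm5 with Mcm7, a description of 10 tumours that share arrays.

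For Prim2 r was 0.244 (exact permutation, adjusted p = 0.668) and rho was 0.358, but its values fall into separate clusters, which 1 correlation does not describe. In the 7 tumours outside the low cluster, picked after the values were seen, r was 0.744 and rho was 0.857. These 7 tumours were not centred within genotype, and r was 0.334 without the 2 farthest from their median score. The values in the 7 tumours are a description. The 3 low tumours had S-phase scores of -0.29, 0.47 and -0.22, inside the range of -0.46 to 0.80 of the other 7 tumours.

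**Figure D4:**
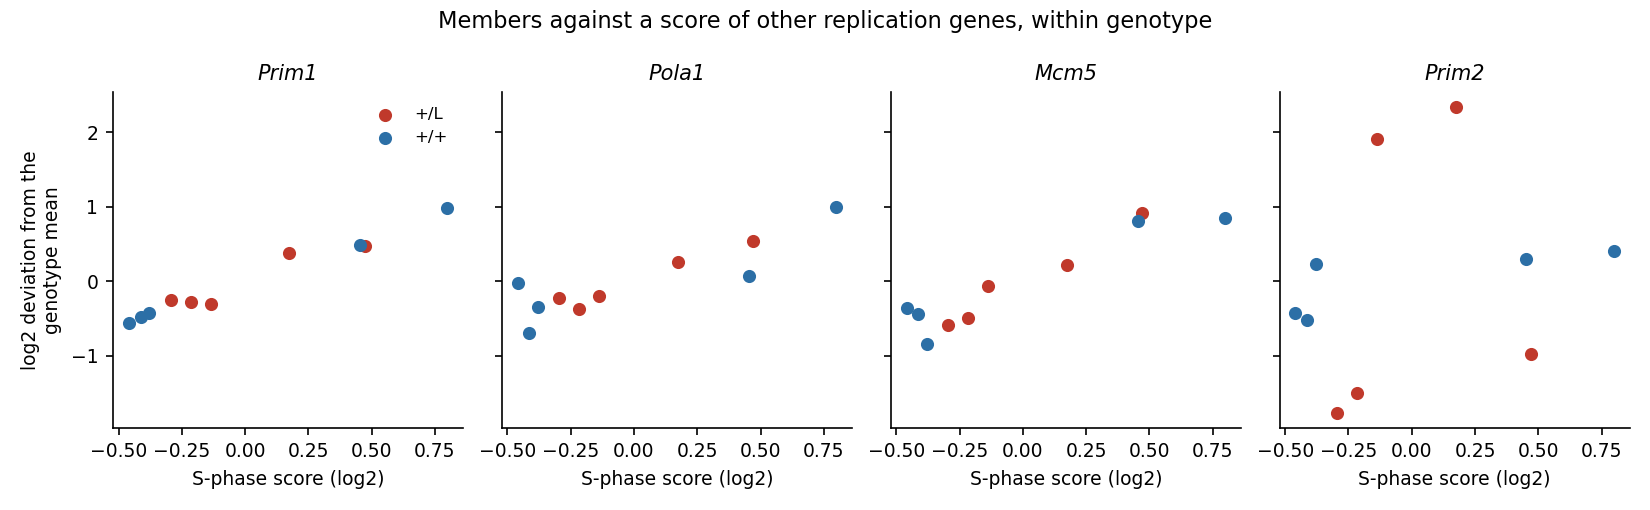
Log2 deviation from the genotype mean (y axis) of Prim1, Pola1, Mcm5 and Prim2 against the S-phase score of 64 other replication genes (x axis, log2, centred within genotype). Each point is a tumour, +/L red and +/+ blue. Prim1, Pola1 and Mcm5 rise with the score (r = 0.985, 0.880 and 0.940); the Prim2 panel holds 2 separate sets of +/L points.

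The mitosis score, from 20 kept genes of spindle and chromosome segregation, gave a looser relation. It correlated with Pola2 at r = 0.921 (exact permutation, adjusted p = 0.142; rho = 0.939, adjusted p = 0.246) and with Prim1 at r = 0.883 (exact permutation, adjusted p = 0.174; rho = 0.806, adjusted p = 0.340). Across the MCM probes r was 0.645 for Mcm4 to 0.890 for Mcm5. Before adjustment 9 of 12 member probes passed, against 11.9% of all probes in that direction. Mcm4 was not among these 9 (exact permutation p = 0.0813). Without mice 11 and 101, both +/+ and farthest from the median score, r fell for every bright member probe other than Prim2. It was 0.768 for Pola2, 0.729 for Mcm5, 0.590 for Prim1, 0.532 for Pola1 and 0.468 for the brighter Mcm3 probe. For Mcm4 it was 0.052, so for Mcm4 the relation rests on those tumours. For Prim2 r with the mitosis score was 0.489 (exact permutation, adjusted p = 0.385) and rho was 0.539. Without mice 11 and 101 the Prim2 r was 0.651, which lay among the values of the other bright members. Age within genotype gave no call: r was 0.305 to 0.586 for the bright members other than Prim2, no member probe passed before adjustment, against 6.88% of all probes, and the smallest adjusted p was 0.719 (exact permutation).

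The other genes of the pathway came from fixed lists and showed no genotype call either. For origin licensing and firing, 13 genes were kept, of which 5 were higher and 8 lower in +/L and 0 passed, with a median difference of -0.04. The 3 with the largest differences were Gmnn, the inhibitor of MCM loading, at 0.54 (4.34 ± 0.32 in +/L and 3.80 ± 0.56 in +/+), Dbf4, the activating subunit of the kinase that fires origins, at 0.46, and its catalytic partner Cdc7 at 0.36. All 3 had adjusted p of 0.672 or more in the limma fit.

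At the replication fork 25 genes were kept, with 8 higher and 17 lower in +/L, 0 passing and a median of -0.11. Pold2, a subunit of polymerase delta, which copies the lagging strand, had the largest difference at -1.05 (1.05 ± 0.62 in +/L and 2.09 ± 0.81 in +/+, SD, n = 5 each; limma adjusted p = 0.610). The histone chaperone gene Chaf1b followed at -0.61 and the ligase gene Lig1 at -0.52. In nucleotide supply, 6 of 10 genes were higher and 4 lower and 0 passed; Rrm1 of ribonucleotide reductase differed by -0.37 and Mthfd1 of folate metabolism by -0.36.

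Of 16 E2F and S-phase regulators, 11 were higher and 5 lower in +/L and 0 passed, with a median of 0.13. E2f8, an atypical E2F that represses its targets, was at -1.03 ± 0.59 in +/L and -2.15 ± 0.62 in +/+ tumours, a difference of 1.11 (limma adjusted p = 0.595). Skp2, which marks CDK inhibitors for degradation, differed by 0.82 and the cyclin gene Ccne2 by 0.62. Of 20 mitosis genes, 8 were higher and 12 lower and 0 passed, led by the checkpoint kinase gene Bub1 at -1.01, Cenpa at 0.41 and Birc5 at 0.30. The relatives Mcm8, Mcm9 and the primase-polymerase gene listed as Ccdc111 differed by -0.09, -0.09 and 0.29.

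The promoters of the members were searched for the E2F motif, because these genes are known E2F targets. RefSeq promoter windows (build GRCm38.p6, 250 bases before to 50 after the start) were matched for 8 members; Prim2 and Mcm4 were not matched. The 4 forms TTTCCCGC, TTTCGCGC, TTTGCCGC and TTTGGCGC were searched on both strands. At least 1 form was found for 5 of the 8 members, Pola1, Mcm3, Mcm5, Mcm6 and Mcm7 (in 1 of its 2 windows), where 2.26% of all 32851 windows and 2.60% of 27025 genes hold one. CCAAT, also on both strands, was found for 7 of the 8, all but Pola2, where 37.4% of all windows and 41.1% of genes hold it. The windows of Mcm5 (chr8:75109259-75109558, plus strand) and Mcm6 (chr1:128359656-128359955, minus strand) are printed 5′ to 3′ because each holds overlapping E2F matches on opposite strands; capitals mark the E2F matches.
Mcm5: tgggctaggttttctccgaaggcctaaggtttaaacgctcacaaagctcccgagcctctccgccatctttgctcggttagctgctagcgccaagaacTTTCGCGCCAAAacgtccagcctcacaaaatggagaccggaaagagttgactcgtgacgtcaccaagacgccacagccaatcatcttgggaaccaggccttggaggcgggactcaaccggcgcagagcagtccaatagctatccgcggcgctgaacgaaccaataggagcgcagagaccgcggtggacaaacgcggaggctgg
Mcm6: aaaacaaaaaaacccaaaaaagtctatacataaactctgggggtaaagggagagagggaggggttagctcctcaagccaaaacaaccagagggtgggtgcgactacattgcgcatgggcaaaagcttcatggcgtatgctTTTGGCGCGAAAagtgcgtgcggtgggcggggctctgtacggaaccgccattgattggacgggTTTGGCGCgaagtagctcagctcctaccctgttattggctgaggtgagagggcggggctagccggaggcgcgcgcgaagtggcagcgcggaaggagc

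In the Mcm5 window 2 matches on opposite strands overlap and start 153 and 149 bases before the start site. In the Mcm6 window 2 overlapping matches start 110 and 106 bases before it and another match, not overlapping them, starts 47 bases before it. These letters are matches and not measured binding sites.

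Among genes probed next to Prim2 on chromosome 1, none placed mice 517, 688 and 866 below all other tumours. The nearest 4 named genes on each side with a probe above the filter were taken. On the side of lower coordinates these were Ptp4a1, EG435616, 4931428L18Rik and Khdrbs2, at -2.51 to -0.796 Mb from the Prim2 probe. On the other side they were Rab23, Bag2, Zfp451 and Bend6, 0.287 to 0.399 Mb away. Rab23, a small GTPase, measured -0.62, -0.09, -0.10, 0.02 and -0.24 in +/L mice 20, 23, 517, 688 and 866, against -0.46 to 0.33 in +/+ tumours. Zfp451 measured 0.94, -0.42 and 0.06 in +/L mice 517, 688 and 866, against -0.41 and 0.13 in +/L mice 20 and 23 and -0.12 to 0.28 in +/+ tumours. Bag2, a co-chaperone gene, measured -2.13, -0.45 and -0.73 in +/L mice 517, 688 and 866, below the 0.22 and -0.24 of +/L mice 20 and 23, while the +/+ tumours spanned -2.50 to 0.86. EG435616 measured -5.99, -4.75 and -5.59 in the 3 mice, below the +/+ values of -4.69 to -4.07, but mouse 23 was also low, at -5.61, and mouse 20 was at -4.24. The 4931428L18Rik values of -6.96, -4.88 and -7.98 in the 3 mice were below the -3.24 and -1.19 of mice 20 and 23 and overlapped the +/+ range of -7.74 to -4.74. The Khdrbs2, 4931428L18Rik, EG435616 and Bend6 probes were dimmer, being well above background on 3, 4, 6 and 8 of the 10 arrays.

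Imp4, which encodes a nucleolar protein of ribosomal RNA processing and lies 0.991 Mb from the Prim2 probe, did split the tumours as Prim2 did; it was picked out after its values were seen. It measured -3.08, -3.95, -7.57, -8.10 and -8.24 in +/L mice 20, 23, 517, 688 and 866, and -3.34, -2.55, -3.35, -3.50 and -3.48 in +/+ mice 11, 17, 19, 40 and 101. The 3 low tumours were the same. Its single probe is dim, well above background in 1 +/L tumour and all 5 +/+ tumours, and not in mice 517, 688 and 866, so the low values are not measured levels. Between the probes of Prim2 and Imp4, 15 kept probes, of 7 names that include Dst and Ccdc115, had genotype differences of -0.76 to 0.58 with a median of 0.01.

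**Figure D5:**
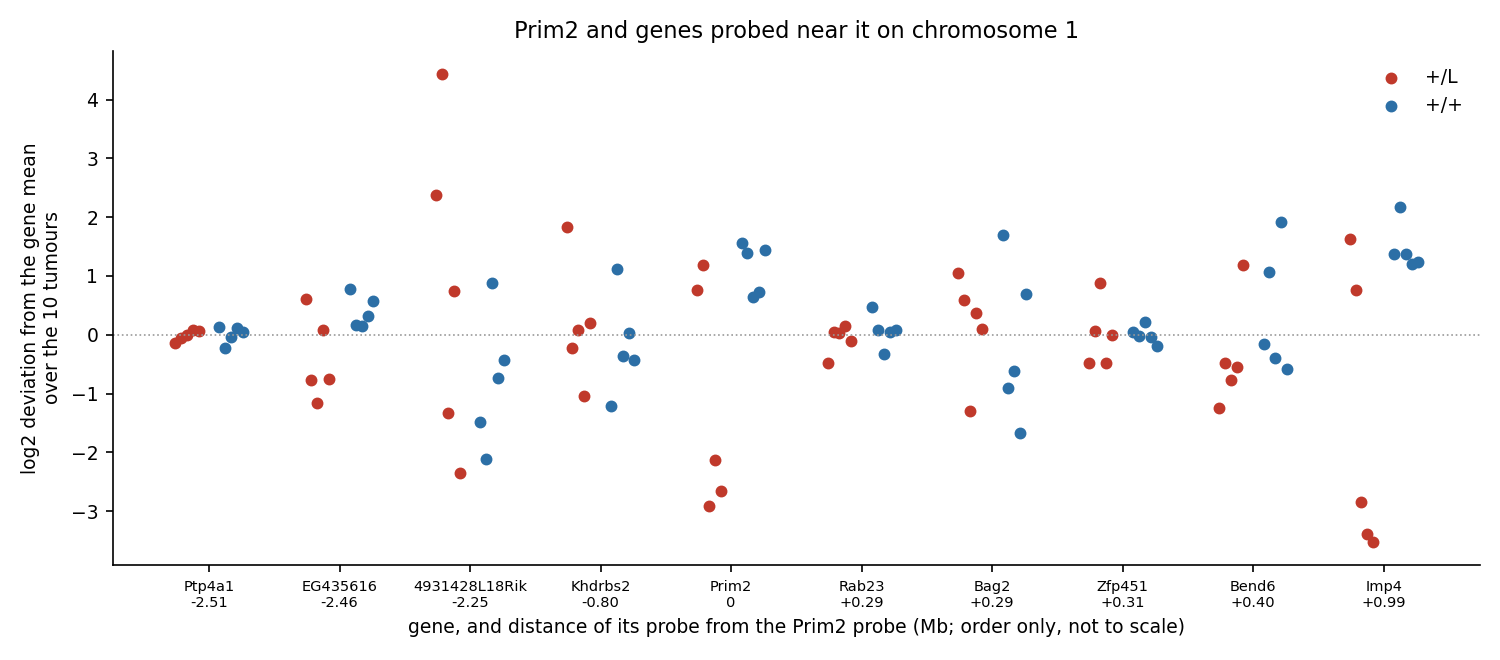
Log2 deviation from each gene's mean over the 10 tumours (y axis) for Prim2, the 4 named genes probed nearest on each side, and Imp4 (x axis, in chromosome order and not to scale, with the distance from the Prim2 probe in Mb). Points are tumours, +/L red and left of +/+ blue. Prim2 and Imp4 each have 3 +/L points apart from the rest; Imp4's low points were not well above background.

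The genes with the most similar pattern across tumours were found by correlating every probe with Prim2 after centring within genotype, as a description of 10 tumours. The 5 closest genes with a symbol were Rem2 (r = 0.965), Kctd7 (0.952), Best1 (0.952), 4932418E24Rik (0.950) and Ulk4 (0.948), on chromosomes 14, 5, 19, 2 and 9. Kctd7, well above background on all arrays, measured -2.60, -2.65, -4.59, -4.16 and -4.90 in +/L mice 20, 23, 517, 688 and 866, against -4.82 to -3.68 in +/+ tumours. In all 5 genes +/L mice 517, 688 and 866 lay below +/L mice 20 and 23, but the +/+ tumours also lay below mice 20 and 23, unlike those of Prim2. Rem2, Best1 and Ulk4 were dim, being well above background on 3, 5 and 5 arrays. No replication gene was among the 5, and Imp4 correlated at r = 0.932.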

How the data were processed

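Per the file headers, Agilent Feature Extraction (10.5.1.1) gave each spot intensity the authors deposited; the files list 45018 spots (43379 not controls, 41174 probes) and mm9 probe positions. A flag per spot, other than an intensity and also deposited, says whether it exceeded background clearly. A second table deposited by the authors gives log2 values for these arrays (column medians 6.96 to 6.97, correlation with the own array 0.967 to 0.996); its background method is not given in the sources available.

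Values were scaled on each array by subtracting the 75th percentile of the log2 processed signals. No non-control spot was saturated (0), 69 probes with an outlier flag were left out, and 26421 probes flagged well above background on 3 or more of 10 arrays were kept. Per gene, the brightest probe was used. Genotypes were compared with limma 3.58.1 (R 4.3.3, lmFit and eBayes) and Benjamini-Hochberg adjustment over all kept probes. Relations to scores and age used exact two-sided permutation within genotype (14400 orders, smallest possible p 6.94e-05) in Python 3.11.15 with numpy 2.4.6. Both procedures were run on simulated data with independent probes and planted changes. That does not show how they behave on probes that vary together, as these do. The number of arrays limits the precision.

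The members and gene lists were chosen with earlier results of these data known. Named genes are the members, the 3 largest differences of each replication, regulator and mitosis list, the 5 genes most like Prim2, the 4 named genes on each side of it, and Cd79a, Cd3e, Cd68 and Mki67; Imp4 was added after its values were seen. A gene that this rule names is not reported here. Cd79a averaged 0.71 ± 1.26 in +/L and 1.01 ± 0.35 in +/+, Cd3e -0.32 ± 0.63 in +/L and 0.46 ± 0.97 in +/+, and Cd68 2.84 ± 1.55 in +/L and 3.81 ± 0.34 in +/+ (SD, n = 5 each). Slides followed the file headers; the description labels place mice 866 and 17 on other slides. The mice have separate numbers and were taken as separate animals. Alternatives were another scaling, normexp with offset 50 and quantile normalization, the deposited table, other filters, slide blocks, age, sex, and each mouse left out.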

Additional observations from a re-analysis of the deposited data

How the results depend on the processing

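The count of probes past adjusted p 0.05 by genotype (limma) was 0 as reported, 1 with normexp and quantile normalization, 1 in the deposited table, and 0 to 3 when each mouse was left out, the 3 being without +/L mouse 517. The count of the 10 members lower in +/L was 8 as reported, 5 with normexp and quantile normalization, 5 in the deposited table, 5 without mice 20 and 11, 2 in female-labelled mice, 1 with age as a covariate, 10 with the slide of the description labels as a block, and 5 to 8 when each mouse was left out. Prim2 stayed lower in +/L in all 22 alternatives, at -2.89 to -1.87 when each mouse was left out and at -2.68 to -1.17 in the others. Prim2 was picked out for this difference and has 1 probe, well above background on all arrays. The settings on other filters and on the choice of probe therefore returned the same -2.31 and are no separate check. The Prim2 difference minus the mean of the other 9 genes, -2.12 as reported, was -2.89 to -1.36. Leaving out each mouse in turn gave -2.66 to -1.70. By exact permutation no probe passed against the S-phase score, the mitosis score or age as reported (0 of 26421, where 4447, 4560 and 1818 had an unadjusted exact p under 0.05). None passed in any of 16 other settings each, of which those with other filters tested 41053 and 17910 probes. With a mouse left out there were 2880 orders and the smallest possible p was 3.47e-04. Those settings could therefore hardly call a probe after adjustment. A permutation with slide and genotype both taken out was not run, since few orders are left within slides. Limma, chosen after seeing the data, called 87, 69 and 0 probes for the S-phase score, the mitosis score and age with genotype as a term, and 1, 0 and 0 with slide as a further term. No paired analysis was possible because the mouse numbers are not shared between the genotypes. The causes of these shifts were not tested.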

Other observations

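The gap in the Prim2 values was set beside that of every other probe, after its values had been seen. Between the third-lowest and the fourth-lowest tumour, Prim2 had a gap of 2.77 on the log2 scale, with -2.63 in +/L mouse 688 just below it and 0.14 in +/+ mouse 19 just above it. A gap at least this wide, with 3 or more tumours on each side, was found in 32 of 26421 kept probes, and in 5 of the 17910 probes well above background on all arrays. Of the 32, Prim2 and Imp4 had mice 517, 688 and 866 on the low side, and the other 30 divided the tumours in other ways. With normexp and quantile normalization the Prim2 gap was 1.85, and it was 1.61 in the deposited table, each with the same 3 tumours below. With those processings gaps as wide as that of Prim2 were more common: 38 of the 26421 and 30 of the 17910 probes with normexp and quantile normalization, and 53 and 45 in the deposited table. Imp4 was not well above background in mice 517, 688 and 866, so the values below its gap are not measured levels and the gap has no firm size: it was 3.62 in the processed signals, 0.31 with normexp and quantile normalization and 0.18 in the deposited table.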
